A study of Mus musculus with 8 samples.

Results

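Fatty acid oxidation genes were described here as 35 genes of the carnitine shuttle, of mitochondrial and peroxisomal beta-oxidation and of their PPAR regulators. They were listed by symbol under a rule that uses no measured value, although earlier results of these data were known when the list was drawn up. All 35 were found by symbol, each with 1 probe set whose Entrez identifier carries the same symbol in RefSeq, among 24704 named genes in all. The material was total RNA from cultured vascular smooth muscle cells of the mouse aorta, hybridised to 8 single-colour arrays. In the control group, 4 arrays, the titles give the adenovirus as AdPl. In the other group, also 4 arrays, they give AdN5, and the genotype is NFAT5 overexpression. Both groups shared 24 h of virus and a further 72 h of cholesterol at 10 µg/ml, so every value below is from infected, cholesterol-loaded cells. NFAT5 is a transcription factor of the osmotic stress response, and the question is what its overexpression does to these genes under cholesterol. The labels do not say whether replicates were separate cultures, so the spread behind every p-value is that between these samples and may be technical.

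The values are log2 RMA values, in which a difference of 1 is a doubling. RMA forces the same distribution on every array, so a shift of all genes together would not be seen, and it draws differences of dim genes toward 0. Differences were tested with limma, which fits a linear model to each gene, and genes are named as called where the adjusted p (Benjamini-Hochberg, whole table) was under 0.05. Nfat5 itself read 7.06, 7.22, 7.11 and 7.25 on the control arrays and 7.06, 6.95, 6.98 and 6.88 on the NFAT5-labelled arrays. It was thus not higher under its own label, at a log2 fold change of -0.19 ± 0.078 (SE; adjusted p = 0.360 in limma, exact two-sided permutation p = 0.0571). Positions of the probes were not given in the sources used here, so whether this probe set reads the transgene is unknown, and all directions follow the labels. The smooth muscle actin gene Acta2 read 12.04 ± 0.021 (SD, n = 4) in the control group and 11.74 ± 0.079 in the NFAT5-labelled group (adjusted p = 0.113 in limma). The smooth muscle markers had no common direction, with 4 of 10 higher, 6 lower and 0 called. Their mean level ran from 6.23 to 6.27 in the control arrays and from 6.14 to 6.34 in the NFAT5-labelled arrays. Acta2 and Mylk had lower groups that did not overlap, and Cnn1 had higher ones (0.33 ± 0.12, SE; adjusted p = 0.296 in limma). These were 20% of the list lower and 10% higher, beside 4.56% and 4.22% of all genes. Of the 10 markers 3, Myocd, Des and Mylk, lay below the median gene of the table (3.73). All 7 measured adipocyte and 7 of 8 striated muscle markers, which mark cell types rich in fatty acid oxidation or storage, lay below it as well. All 11 measured macrophage markers were higher in the NFAT5-labelled arrays and 3 of them were called, beside 0.364% of all genes called higher. Their mean level ran from 6.30 to 6.48 there and from 5.91 to 6.10 in the control arrays. The groups did not overlap for 6 of the 11 markers (54.5%), beside 4.22% of all genes on the higher side. The mean of the 9 fibroblast markers ran from 4.43 to 4.60 against 4.79 to 4.86, with 7 lower and 1 called, beside 0.413% of all genes called lower. The part of these shifts in any result below was not tested, and fewer cells of a type and less RNA per cell cannot be told apart in bulk RNA.

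Beta-oxidation breaks an acyl-CoA down stepwise in repeated rounds of dehydrogenation, hydration, a further dehydrogenation and thiolytic cleavage. Long-chain acyl groups enter mitochondria as carnitine esters, while very long and branched chains are first shortened in peroxisomes. The nuclear receptors PPAR-alpha and PPAR-delta, with the coactivator PGC-1alpha, induce many of these genes when fatty acids are abundant. As in other cells, the pathway in smooth muscle competes with glucose oxidation for entry into the tricarboxylic acid cycle.

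The sequences upstream of the start site are shown for the called gene and for the member with the largest positive fold change, since both are known PPAR target genes. They are the 250 bases before the RefSeq start site (GRCm38.p6), 5′ to 3′ on the strand of the gene. Capitals mark the letters TGGAAA, the core shared by NFAT sites, on either strand. Acot2 lies at chr12:83987611-83987860 on the plus strand, and Pdk4 at chr6:5496279-5496528 on the minus strand.
Acot2: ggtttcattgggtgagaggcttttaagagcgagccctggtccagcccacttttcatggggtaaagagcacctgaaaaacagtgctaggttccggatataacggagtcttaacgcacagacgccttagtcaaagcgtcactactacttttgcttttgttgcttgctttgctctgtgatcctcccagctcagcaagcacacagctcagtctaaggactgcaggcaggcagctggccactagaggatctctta
Pdk4: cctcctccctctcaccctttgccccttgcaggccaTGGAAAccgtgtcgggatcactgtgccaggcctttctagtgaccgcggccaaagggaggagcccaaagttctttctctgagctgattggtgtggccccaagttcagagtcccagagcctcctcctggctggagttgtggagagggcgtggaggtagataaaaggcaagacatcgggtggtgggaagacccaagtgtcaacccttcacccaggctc
The Acot2 window held none of the 3 motifs searched, and the Pdk4 window held TGGAAA at -215 to -210. The motif search is given in full after the expression values.

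Most fatty acid oxidation genes differed little between the groups, and a single gene was called. Of the 35 genes 1 fell, 0 rose and 34 did not pass. Over all genes, 0.413% were called lower and 0.364% higher. At an unadjusted p under 0.05, 3 genes were higher (8.57%) and 4 lower (11.4%), beside 6.24% and 6.29% of all genes. With counts this small these shares are a description of the list. The groups did not overlap for 2 higher genes, Ppard and Cpt1a, and for 4 lower genes, Acad9, Acadsb, Hsd17b4 and Acot2, which is 5.71% and 11.4% of the list beside 4.22% and 4.56% of all genes. Since 31 of the 35 genes lie above the median gene, the nearer background is the 12352 genes above it. There the groups did not overlap for 6.45% of the 31 genes on the higher side and 12.9% on the lower side, beside 6.78% and 7.64% of all such genes. At an unadjusted p under 0.05 the shares were 9.68% higher and 12.9% lower, beside 8.44% and 8.95%. The higher share was thus near that of all such genes by both measures, and the lower side rests on 4 genes in each. By unadjusted p these 4 were Acad9, Hsd17b4, Abcd2 and Acot2, with Abcd2 in the place of Acadsb. The median log2 fold change was 0.0072 over the 35 genes and 0.0042 over all genes, and 18 genes lay above 0 and 17 below. The median standard error was 0.089, and for 31 genes the 95% interval of the fold change lay wholly within 1.5-fold in either direction, as it did for 87.1% of all genes. The exceptions were Hadhb, Ehhadh, Abcd2 and Acot2. Of the 35 genes 4 lay below the median gene, namely Ppara, Ppargc1a, Acad10 and Ehhadh, and their sizes of change are uncertain.

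**Figure D1:**
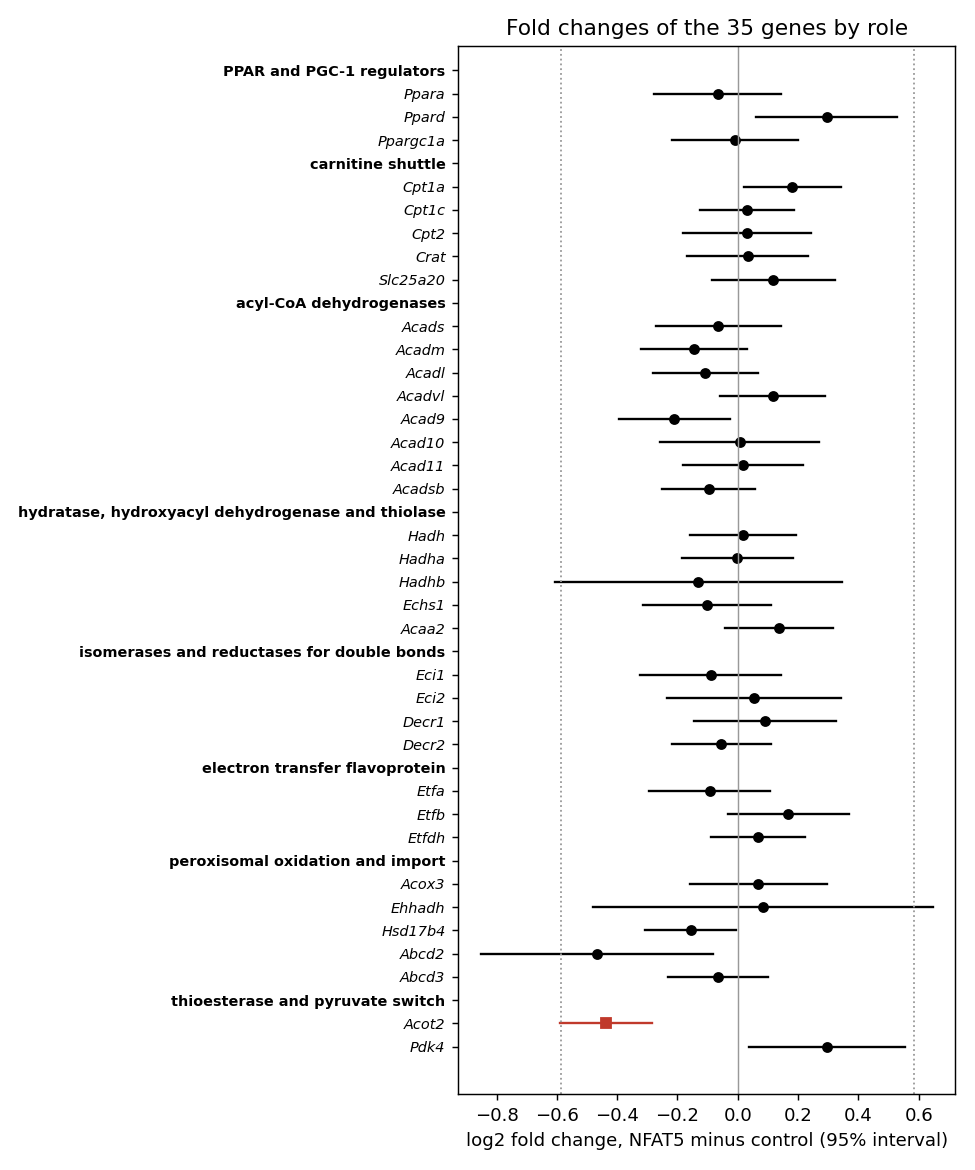
Log2 fold change of each of the 35 genes (points) with its 95% interval from limma (lines), grouped by role; dotted lines mark 1.5-fold in either direction. Acot2 (square, -0.44) is the gene called at an adjusted p under 0.05, and 31 intervals lie between the dotted lines.

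Acot2 encodes a mitochondrial acyl-CoA thioesterase, which splits long-chain acyl-CoA into the free acid and coenzyme A and so frees coenzyme A in the matrix. It read 10.15, 10.10, 10.05 and 10.14 on the control arrays. On the NFAT5-labelled arrays it read 9.62, 9.66, 9.68 and 9.73. The groups did not overlap, and each spread little (SD 0.044 and 0.047). Acot2 fell by 0.44 ± 0.068 (SE) on the log2 scale to 73.8% of the control level, with a 95% interval from -0.59 to -0.28 (adjusted p = 0.0251 in limma; exact two-sided permutation p = 0.0286, the smallest possible with 4 against 4). Every gene whose groups do not overlap gets this permutation p, which is not adjusted for the choice of the gene. It thus adds nothing to the lack of overlap. Acot2 was lower in 4 of 4 NFAT5-labelled arrays. The adjusted p lay between 0.0523 and 0.0967 with any array left out in turn, so the call was kept in 0 of 8 such fits, while the fold change stayed between -0.46 and -0.42.

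The thioesterase family was set beside it after this value was seen. Acot1, the cytosolic enzyme closest to Acot2 in sequence and encoded beside it, was dim (2.49 in the control group) and at 0.031. Probes that read both genes cannot be told apart here. Of 13 Acot genes measured 12 did not pass. The peroxisomal Acot4 was at 0.32, a dim gene, Acot7 at 0.24, Acot13 at -0.022 and Acot9 at -0.19, the last a mitochondrial thioesterase.

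Pdk4 encodes the kinase that switches off pyruvate dehydrogenase when fatty acids are burnt, and it is a common marker of PPAR activity. Its control values were 5.46, 5.49, 5.19 and 5.69, and its NFAT5-labelled values 5.81, 5.76, 5.56 and 5.87. A single NFAT5-labelled array, replicate 3, lay within the control range. The log2 fold change was 0.30 ± 0.12 (SE; 95% interval 0.037 to 0.56; adjusted p = 0.327 in limma), the highest of the 35 genes.

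**Figure D2:**
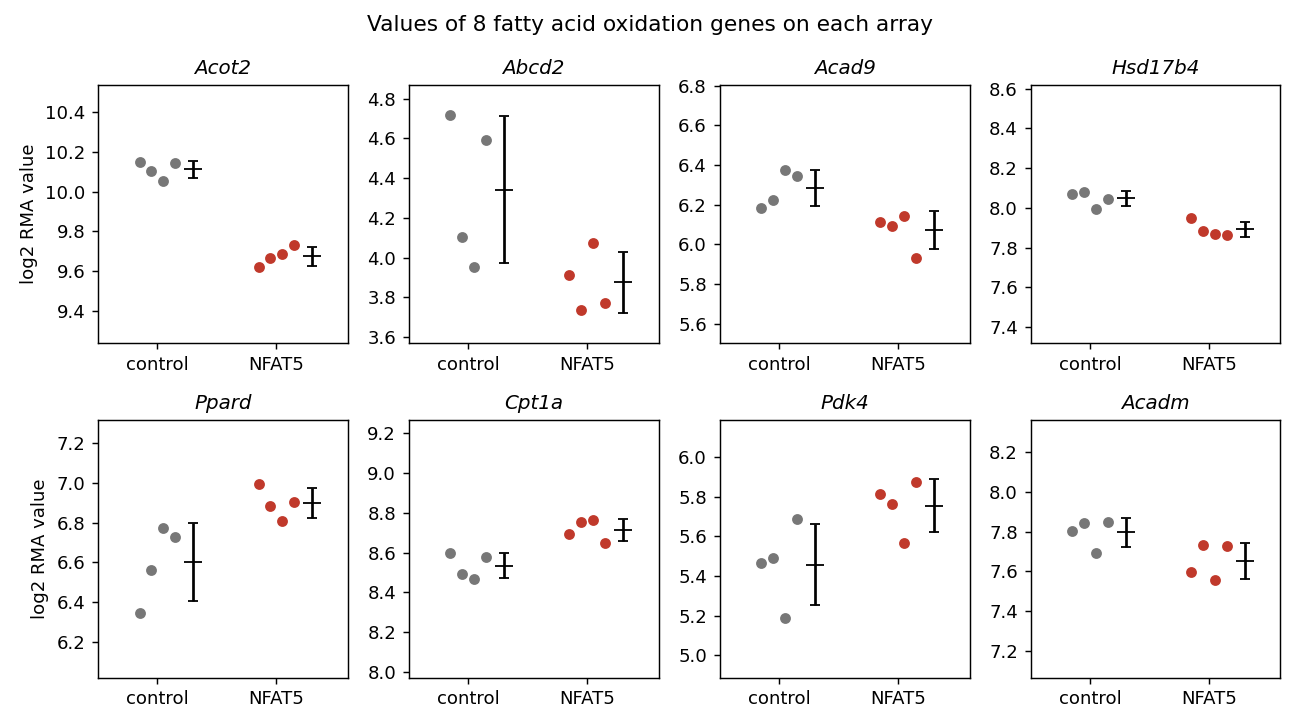
Log2 RMA values of 8 genes on each array (points, 4 control in grey and 4 NFAT5-labelled in red), with the group mean and SD beside them; every panel spans 1.3 log2 units. Acot2 separates the groups most widely for its spread, Acad9, Hsd17b4, Ppard and Cpt1a do not overlap, and Abcd2, Pdk4 and Acadm overlap.

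Among the regulators the fatty acid receptor gene Ppard stood on the higher side, and the others were dim. Ppard, which encodes PPAR-delta, read 6.34, 6.56, 6.77 and 6.73 on the control arrays and 6.99, 6.88, 6.81 and 6.90 on the NFAT5-labelled arrays. The groups did not overlap, although the nearest arrays were close (6.77 and 6.81), and the spread was wider in the control group (SD 0.19 against 0.076). The log2 fold change of 0.30 ± 0.10 (SE) did not pass (adjusted p = 0.275 in limma). Ppara, encoding PPAR-alpha, read 3.01, 3.19, 2.99 and 3.06 against 3.00, 2.97, 2.83 and 3.19. Ppargc1a, encoding PGC-1alpha, read 1.94, 2.11, 2.11 and 2.03 against 1.85, 2.14, 2.18 and 1.97. The groups overlapped for both genes, at fold changes of -0.066 ± 0.094 and -0.0092 ± 0.094 (SE). Both lie near the lower end of the measured range, so the size of any difference is uncertain.

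The carnitine shuttle held 5 genes, all with fold changes above 0 and 0 called. Cpt1a encodes the outer-membrane carnitine palmitoyltransferase that sets the rate of mitochondrial entry. It read 8.60, 8.49, 8.47 and 8.58 on the control arrays and 8.69, 8.75, 8.77 and 8.65 on the NFAT5-labelled arrays. All 4 NFAT5-labelled arrays lay above the highest control array, at a difference of 0.18 ± 0.072 (SE) that did not pass (adjusted p = 0.336 in limma). Slc25a20, the carnitine-acylcarnitine exchanger of the inner membrane, was at 0.12 ± 0.091, with overlapping groups. Cpt2, which turns acylcarnitine back into acyl-CoA inside the mitochondrion, read 6.89, 6.75, 6.85 and 6.76 against 6.92, 6.91, 6.60 and 6.94. NFAT5 replicate 3 was the low array, and the fold change was 0.031 ± 0.095 (SE). Crat, the carnitine acetyltransferase (0.033), and Cpt1c, the brain-type isoform (0.029), had intervals from -0.17 to 0.23 and from -0.13 to 0.19.

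The 8 acyl-CoA dehydrogenase genes, whose enzymes open each round, were split by sign, with 3 above 0, 5 below and 0 called. Acad9, which also helps to assemble respiratory complex I, read 6.18, 6.23, 6.37 and 6.34 on the control arrays and 6.11, 6.09, 6.14 and 5.93 on the NFAT5-labelled arrays. Its groups did not overlap, at -0.21 ± 0.082 (SE; adjusted p = 0.326 in limma). Acadm, the medium-chain dehydrogenase, read 7.81, 7.85, 7.69 and 7.85 against 7.59, 7.73, 7.56 and 7.73. Control replicate 3 lay within the NFAT5-labelled range, and the fold change was -0.15 ± 0.078 (adjusted p = 0.499 in limma). Acadvl, the very-long-chain dehydrogenase of the inner membrane, lay on the other side, with 7.61, 7.71, 7.83 and 7.71 against 7.92, 7.82, 7.82 and 7.76. Control replicate 3 lay above 3 of the 4 NFAT5-labelled arrays, and the fold change was 0.12 ± 0.077 (SE; adjusted p = 0.605 in limma). The long-chain dehydrogenase gene Acadl was at -0.11, the short-chain Acads at -0.064 and Acadsb, which acts on short branched chains, at -0.097. The groups of Acadsb did not overlap, at 8.13 to 8.25 against 8.04 to 8.11. Acad10 (0.0072) and Acad11 (0.019) lay near 0.

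The enzymes that complete a round showed 0 calls among 5 genes, and the groups overlapped for each. Hadha encodes the alpha subunit of the trifunctional protein, which hydrates and dehydrogenates long chains. It read 9.40, 9.39, 9.40 and 9.60 on the control arrays and 9.46, 9.43, 9.55 and 9.35 on the NFAT5-labelled arrays, at -0.00085 ± 0.082 (SE), the smallest difference of the 35 genes. Control replicate 4 stood above the other control arrays. Hadhb, the beta subunit with the thiolase, was far less precise, from 3.95 to 5.04 in the control group and from 4.14 to 4.63 in the NFAT5-labelled group. Its interval from -0.61 to 0.35 leaves the size of any change undetermined at this number of arrays. Acaa2, a mitochondrial thiolase, was at 0.14, Hadh, the dehydrogenase for shorter chains, at 0.016 and the hydratase gene Echs1 at -0.10.

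Isomerases and reductases that prepare double bonds of unsaturated acids lay near 0. Decr1, the mitochondrial dienoyl-CoA reductase, was at 0.091 and its peroxisomal counterpart Decr2 at -0.054. The enoyl-CoA isomerase genes Eci1 and Eci2 were at -0.090 and 0.053. Adjusted p-values of these 4 genes in limma ran from 0.793 to 0.916. The electron transfer flavoprotein carries the electrons of the dehydrogenases to the respiratory chain. Its subunit genes Etfa and Etfb were at -0.093 and 0.17, and Etfdh, which passes the electrons on to ubiquinone, at 0.067. For Etfb, control replicate 3 (7.35) lay within the NFAT5-labelled range of 7.29 to 7.42, with the other control arrays at 6.996 to 7.21.

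In the peroxisomal group 0 of 5 genes were called, and the median was -0.065. Hsd17b4 encodes the bifunctional protein that hydrates and dehydrogenates very long and branched chains. It read 8.07, 8.08, 7.996 and 8.04 on the control arrays and 7.95, 7.89, 7.87 and 7.86 on the NFAT5-labelled arrays. The groups did not overlap, at -0.16 ± 0.067 (SE), and the difference did not pass (adjusted p = 0.377 in limma). Abcd2, a transporter of very-long-chain acyl-CoA into peroxisomes, had the most negative fold change of the list. The gene lay little above the median gene (mean 4.11 over the 8 arrays, against 3.73), so the size of its change is uncertain. It read 4.72, 4.10, 3.95 and 4.59 on the control arrays and 3.91, 3.74, 4.08 and 3.77 on the NFAT5-labelled arrays. The control arrays were scattered (SD 0.37) and control replicate 3 fell within the other group, so the fold change of -0.47 ± 0.17 (SE) did not pass (adjusted p = 0.290 in limma). Its relative Abcd3 was at -0.065. Acox3, an oxidase for branched chains, was at 0.068. Ehhadh, the other bifunctional enzyme and a PPAR-alpha target in liver, ranged from 3.13 to 3.89 in the control group and from 2.89 to 4.01 in the NFAT5-labelled group, at 0.083 ± 0.25 (SE).

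**Figure D3:**
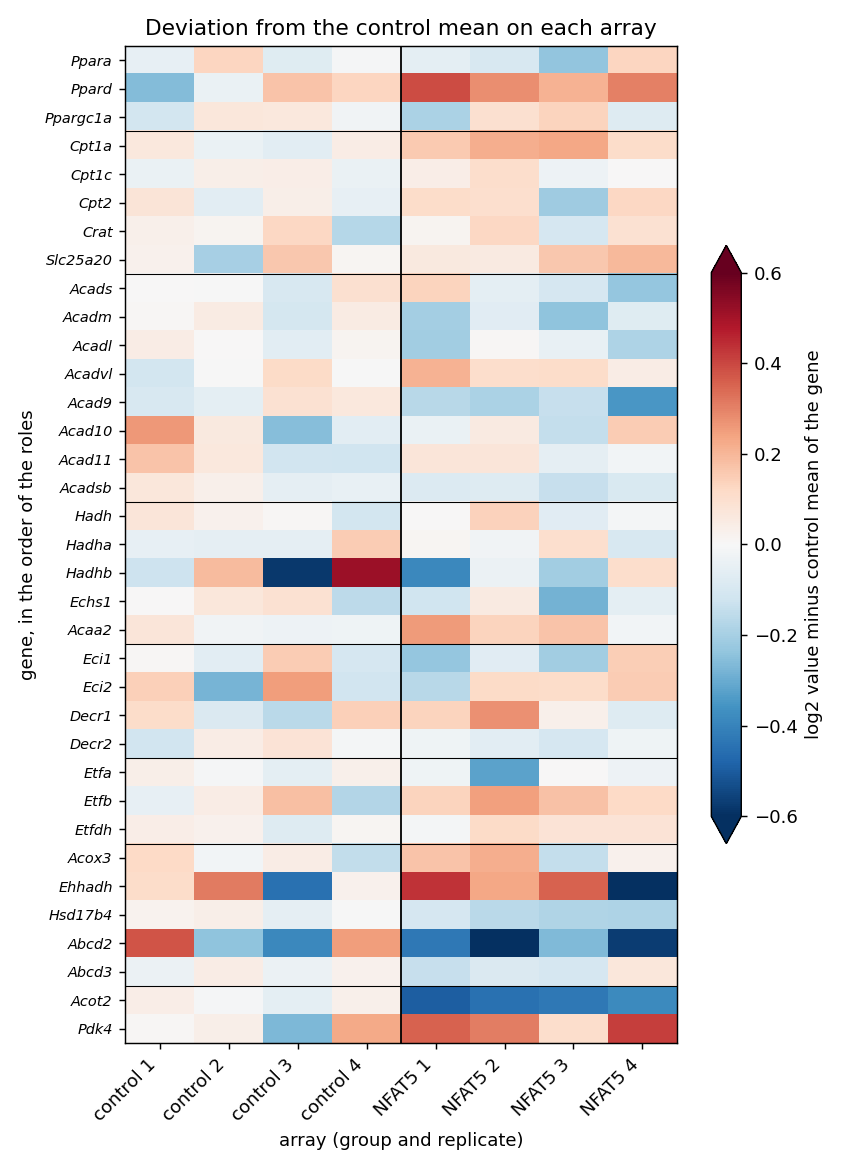
Deviation of each of the 35 genes (rows, by role) from its control mean on each of the 8 arrays (columns), on the log2 scale, with colours saturating at 0.6. Acot2 is lower on all 4 NFAT5-labelled arrays, whereas the widest deviations within a group are those of Hadhb (3.95 to 5.04 in the control group) and Ehhadh (2.89 to 4.01 in the NFAT5-labelled group).

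No array carried the whole list up or down. The median deviation of the 35 genes from their control means ran from -0.052 in control replicate 3 to 0.024 in control replicate 1, and from -0.066 in NFAT5 replicate 3 to 0.056 in NFAT5 replicate 2. The groups overlapped on this measure.

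Of 119 genes in 8 related lists, 105 were measured and 1 was called. The others were not analysed here. The scavenger receptor and fatty acid translocase gene Cd36 rose. It read 5.89, 5.66, 5.44 and 5.995 on the control arrays and 6.42, 6.64, 6.86 and 6.45 on the NFAT5-labelled arrays, a log2 fold change of 0.85 ± 0.14 (SE; adjusted p = 0.0313 in limma). It was higher in 4 of 4 NFAT5-labelled arrays, but leaving out any 1 array ended the call, in 8 of 8 fits (adjusted p 0.0548 to 0.102 in limma). Cd36 is also abundant in macrophages, whose 11 markers were all higher in the same arrays, and their part was not tested. At the other end of the 11 genes of fatty acid uptake, binding and activation stood Dbi, the acyl-CoA binding protein gene, at 8.13, 8.05, 8.34 and 8.13 against 7.73, 7.83, 7.82 and 7.81. The groups did not overlap, at -0.36 ± 0.082 (SE; adjusted p = 0.102 in limma). The call is made when only genes above the median are tested (adjusted p = 0.0280 in limma) or with a variance trend and robust estimation (0.00373). Both settings also raised the number of calls over all genes. With 1 array left out Dbi was called in 0 of 8 fits (adjusted p 0.143 to 0.216 in limma).

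PPAR target genes outside the 35 showed 9 of 12 fold changes above 0 and 0 calls, with a median of 0.083. Over all 24704 genes, 12608 lay above 0 and 12096 below. Of the 12 genes 5 lay below the median gene. Vnn1, a pantetheinase gene, was the highest at 0.31 ± 0.11 and Cyp4a10, a dim gene, the lowest at -0.091. The secreted lipase inhibitor gene Angptl4 read 9.60, 9.46, 9.58 and 9.51 against 9.77, 9.76, 9.89 and 9.94, at 0.30 ± 0.077 (SE; adjusted p = 0.143 in limma). The lipid droplet coat gene Plin2 read 9.31, 9.27, 9.24 and 9.30 against 9.51, 9.45, 9.51 and 9.55, at 0.23 ± 0.067 (adjusted p = 0.197 in limma). The groups did not overlap for Angptl4 and Plin2, which were named after their values were seen. These are 16.7% of the 12 genes, beside 4.22% of all genes and 6.78% of genes above the median on the higher side. With counts this small the shares are a description of the list. Among the 17 genes of receptor partners and mitochondrial biogenesis 13 lay below 0, the median was -0.070, 0 were called, and the ends were Pparg, the adipogenic receptor gene (-0.36), and Esrrg (0.19).

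Neighbouring mitochondrial pathways held 0 calls. The 12 genes of ketone body and branched-chain acyl-CoA metabolism had a median of -0.12 with 10 below 0. For 5 of them (41.7%), namely Oxct1, Acat1, Acad8, Pcca and Bckdhb, the groups did not overlap on the lower side. The share was 4.56% of all genes and 7.64% of genes above the median, where 11 of the 12 lie. With counts this small the 41.7% is a description of the list, which was chosen with earlier results known. Bckdhb, a subunit of the branched-chain keto acid dehydrogenase, read 6.24, 6.26, 6.21 and 6.26 against 5.94, 6.003, 5.83 and 5.86, at -0.33 ± 0.071 (SE; adjusted p = 0.0847 in limma). It is called among genes above the lower quartile (adjusted p = 0.0491), among genes above the median (0.0182) and with a variance trend and robust estimation (0.0368). Gcdh, the highest of that list, was at 0.079. The 17 genes of the tricarboxylic acid cycle lay between -0.14 (Sdhc) and 0.080 (Sdha), with a median of -0.043. In the pyruvate dehydrogenase list of 10 genes the ends were Pdhb (-0.17) and Pdk3 (0.38), a pyruvate dehydrogenase kinase gene like Pdk4. Pdk3 read 6.67, 6.48, 6.51 and 6.56 against 7.07, 6.95, 6.91 and 6.81, with groups that did not overlap (adjusted p = 0.0925 in limma). It is called among genes above the median (adjusted p = 0.0257) and with a variance trend and robust estimation (0.0118). The 15 other fatty acid oxidation genes had a median of -0.012, from Scp2, a peroxisomal thiolase and sterol carrier gene (-0.24), to Acot4 (0.32), and the 11 peroxisome biogenesis genes one of -0.10, from Pex14 (-0.24) to Pex3 (0.13).

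**Figure D4:**
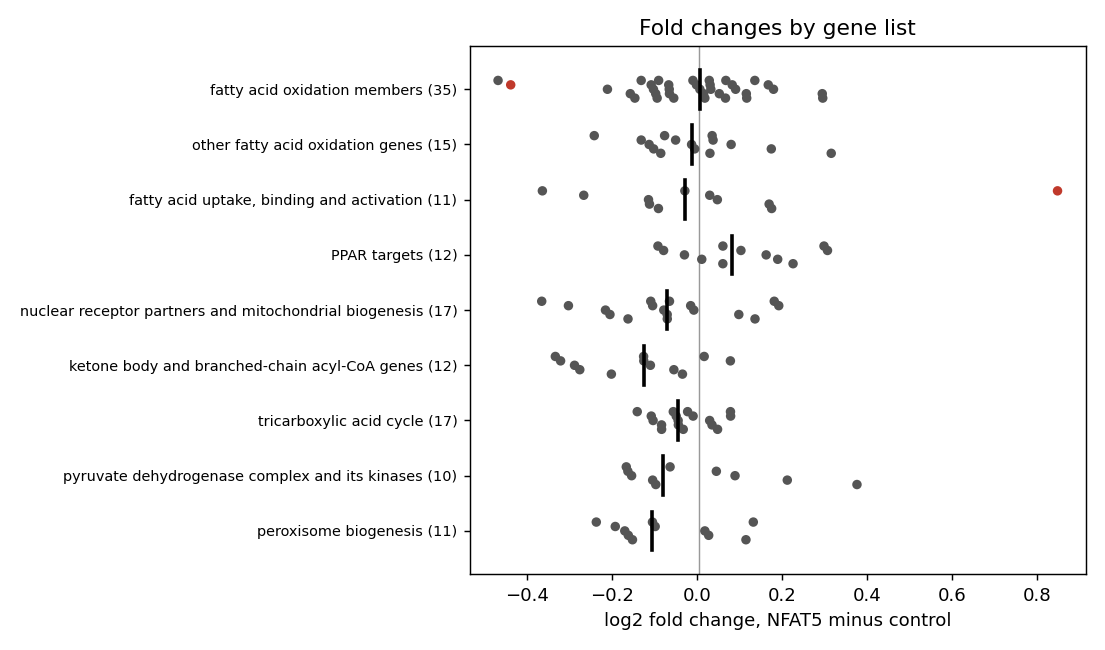
Log2 fold changes of the 35 fatty acid oxidation genes and of the measured genes of 8 related lists (points; number of genes in brackets), with the median of each list as a bar and the median of all genes (0.0042) as a grey line. Called genes are red: Acot2 (-0.44) among the 35 genes and Cd36 (0.85) among the uptake genes.

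Promoter sequence was searched for motifs of the regulators named above. RefSeq windows of 250 bases before to 50 after a start site (GRCm38.p6) were supplied for 29 of the 35 genes, 30 windows in all. The genes with no window were Crat, Acad9, Acaa2, Decr1, Hsd17b4 and Abcd2. Both strands were searched. The PPAR and RXR element was taken as AGGTCA repeated with 1 base between the copies and up to 2 mismatches in its 12 fixed letters. It was found in 3 of 30 windows (10.0%), those of Echs1, Etfa and Slc25a20, and in 3.86% of all 32851 windows. The 3 genes were at -0.10, -0.093 and 0.12. The Slc25a20 match lay past the start site, at 7 to 19. The matches in the other two genes are shown in capitals with 10 bases on each side, as the only upstream matches to this element among the 30 windows. Echs1 is at chr7:140116482-140116514 and Etfa at chr9:55512298-55512330, both on the minus strand, and the Etfa match reads on the opposite strand.
Echs1: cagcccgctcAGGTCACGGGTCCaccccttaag
Etfa: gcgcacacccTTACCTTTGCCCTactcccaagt
They lie at -83 to -71 and at -77 to -65 of their start sites. The estrogen-related receptor site TCAAGGTCA, which contains the AGGTCA copy, was in 0 of 30 windows and in 0.423% of all windows. TGGAAA was in 5 of 30 windows (16.7%) and in 21.4% of all windows. The 5 genes were Cpt1c, Etfa, Etfdh, Pdk4 and Ppargc1a. A match describes letters only, and binding was not measured.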

How the data were processed

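Total RNA of the 8 arrays was measured as log2 expression. The deposited log2 values come from RMA, the tool named (without a version) per the submitters' processing notes. Labelling followed the Affymetrix protocol, and build and annotation were not given in the sources used here. The sorted values differed between arrays by at most 0.00183. Of 25428 probe sets 24705 had 1 gene symbol in the supplied platform table, 0 had several and 723 were not listed. The brightest probe set per symbol left 24704 genes, and 25237 probe sets matched the RefSeq table (GRCm38.p6) by Entrez identifier, with 0 symbols differing. Promoter sequences and their coordinates are RefSeq's, not those of the probes.

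Groups came from the sample titles. They were compared by lmFit and eBayes of limma 3.58.1, run under R 4.3.3 (two-sided, no covariates, no filter on dim genes), with Benjamini-Hochberg adjustment over all 24704 genes. The script was tested on simulated data. Errors are SEs from this fit or SDs over 4 arrays. The number of arrays limits the precision. Figures were drawn with matplotlib 3.10.9 in Python 3.11.15.

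The 35 genes, the 8 related lists, the 6 marker lists (53 of 56 markers measured), the motifs and the tests were chosen with earlier results of these data known. Named in full were genes of the 35 at an unadjusted p under 0.05 and Ppara, Ppard, Ppargc1a, Cpt1a, Cpt2, Acadm, Acadvl, Hadha and Pdk4; of each related list, called genes and both ends. Other genes were named after their values were seen. Alternatives were the replicate block, renewed quantile normalisation, median centring, 2 filters on dim genes, every probe set, array weights, robust estimation with a variance trend, omission of each array, and an adjusted p under 0.01. Leaving out control replicate 3 and NFAT5 replicate 4 together was added after seeing the data.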

Additional observations from a re-analysis of the deposited data

Results flagged for a closer look

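A single array stood far from the other 3 of its group for 6 of the 104 groups of 4 arrays examined, and chance flags about 1 in 20 groups. Cpt2 read 6.60 on NFAT5 replicate 3 (others 6.91 to 6.94), Hadha 9.60 on control replicate 4 (9.39 to 9.40), Acaa2 5.68 on control replicate 1 (5.58 to 5.59), Eci2 6.21 on NFAT5 replicate 1 (6.49 to 6.53), Etfa 6.05 on NFAT5 replicate 2 (6.34 to 6.37) and Gcdh 5.88 on NFAT5 replicate 3 (6.07 to 6.10). These arrays differ from gene to gene, and the causes were not tested.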

How the results depend on the processing

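Of all genes 90 were called higher and 102 lower; the counts were 3 and 11 with the replicate block, 236 and 261 among genes above the median, 360 and 421 with robust estimation and a variance trend, 16 and 26 at an adjusted p under 0.01, 10 and 20 without control replicate 3 and NFAT5 replicate 4 (chosen after seeing the data), and 22 to 43 and 34 to 51 with 1 array left out. The count of fatty acid oxidation genes called lower was 0 with the replicate block (Acot2 adjusted p = 0.147 in limma), 0 at the stricter threshold, 0 without those 2 arrays (0.107) and 0 to 0 with 1 array left out. Counts at an unadjusted p under 0.05 ran from 1 to 3 higher and from 1 to 4 lower with 1 array left out, and 2 were lower with the replicate block. The causes were not tested. Same-numbered arrays did not deviate together (correlations 0.055, 0.049, -0.13 and -0.064), so the numbers were not taken as pairs. The highest correlation between any control and any NFAT5-labelled array was 0.20. It was that of control replicate 3 with NFAT5 replicate 4, the arrays left out together above, and its cause was not tested.

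The sign turned without those 2 arrays for Ppargc1a (0.035), Acad10 (-0.13), Acad11 (-0.00700) and Hadha (0.014), and with array weights for Acad10 (-0.012). With 1 array left out, 25 of 35 genes kept their sign in every fit; the others ranged from -0.057 to 0.052 (Ppargc1a), -0.00045 to 0.11 (Cpt2), -0.024 to 0.077 (Crat), -0.078 to 0.094 (Acad10), -0.021 to 0.076 (Acad11), -0.025 to 0.043 (Hadh), -0.035 to 0.051 (Hadha), -0.32 to 0.040 (Hadhb), -0.040 to 0.14 (Eci2) and -0.067 to 0.34 (Ehhadh). Cyp4a10 ranged from -0.20 to 0.069. Signal near background limits the dim genes, whose differences RMA draws toward 0.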
